A study of Rattus norvegicus with 140 samples.

Results

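Hearts taken 48 hours after heat stress were compared with hearts of time-matched control rats on whole-transcript arrays, with 5 of the 6 heated hearts and all 6 control hearts, or 11 of the 140 arrays of a series that measured liver, heart, kidney and lung at maximum core temperature (TcMax) and after 24 and 48 hours of recovery. Each array was 1 heart of 1 rat. The heated rats (heart_48hr-recover_heat) were warmed while conscious in an incubator at 37 °C until the core temperature reached 41.8 °C, then recovered in a fresh cage at 22 °C and were killed at 48 hours. The controls (heart_48hr-recover_control) were killed at the same time without being warmed. On 1 point the sources differ, since the sample labels say that controls spent a short time in the incubator at ambient temperature and the methods of the study say that they never entered it. All rats of both groups were male Fischer 344, 2 to 3 months old, and carried an implanted telemetry transmitter, so no group here shows hearts of rats without an implant. A piece cut from each heart was milled frozen, per the methods of the study, and each value is therefore a mixture of whatever chambers and cell types were in that piece. In such bulk samples, fewer cells of a type and less RNA per cell cannot be told apart. The labels give no tissue diagnosis for any rat, and the heated rats were kept as 1 group.

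Heated replicate 4 was left out because its array read like lung. Sftpc, the surfactant protein C of alveolar type II cells, stood at 13.09 on the log2(intensity + 16) scale in this array against 4.25 to 7.56 in the other 11, and Myh6, the alpha myosin heavy chain of heart muscle, stood at 5.19 against 9.37 to 12.43. Its values correlated at r = 0.750 with the mean of the control hearts and at r = 0.882 with the mean of the lung controls of the series. All values below are on the log2(intensity + 16) scale. On it a step of 1 is a 2-fold difference in intensity at high intensity and a larger one at low intensity. Folds given below are on this scale, with the 16 added. Heated values are listed in the order of replicates 1, 2, 3, 5 and 6, and differences are heated minus control with the standard error (SE) of the fit, for 5 heated and 6 control arrays.

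Heart muscle cells hold the contractile apparatus, the calcium stores that trigger each beat, and dense mitochondria that burn mainly fatty acids. Under load or injury they return in part to a fetal program, in which skeletal muscle alpha-actin (Acta1) and the natriuretic peptides (Nppa, Nppb) are raised. When muscle fibres die, monocytes enter and become macrophages that clear debris, fibroblasts lay down collagen, and macrophages, fibroblasts and vessel cells divide, whereas adult muscle cells rarely do. Natural killer cells and cytotoxic T cells, a small part of the resting heart's leukocytes, kill by releasing perforin and granzymes.

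The hearts carried different amounts of neighbouring tissue. Some of its genes were high in arrays of both groups, and the fat and kidney genes were highest in heated hearts. Alb, the liver's albumin gene, ranged from 4.26 to 11.65 in the heated arrays and from 4.81 to 12.15 in the controls. Of the atrial genes, Sln (sarcolipin) was at 9.77 in heated replicate 3 and at 10.92 and 10.97 in control replicates 2 and 5, against 4.99 to 5.47 elsewhere. The 7 measured atrial markers had a median difference of -0.89, and 6 of them had a negative difference. Heated replicate 3 alone held the brown fat gene Ucp1 at 10.41 (4.38 to 5.01 in the other 10) and the fat cell gene Adipoq at 9.78 (at most 6.78 in the others), and heated replicate 2 held the kidney genes Umod at 8.82 and Slc12a1 at 8.56. Sftpc was at 7.47 in heated replicate 1 and 7.56 in control replicate 4. Median intensity per array lay between 37.6 and 46.9, and the precision of every value is set by how few arrays there are.

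**Figure D1:**
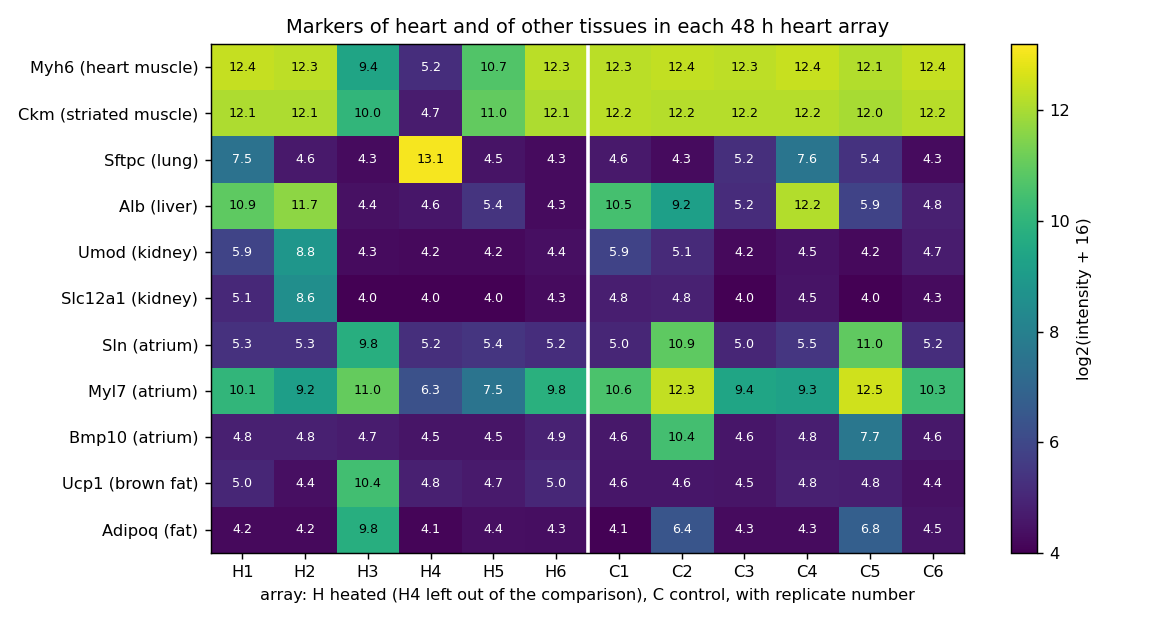
Level of marker genes in each heart array at 48 hours, on the log2(intensity + 16) scale (colour and printed value; columns are arrays, H heated and C control with the replicate number, and the white line parts the groups). Heated replicate 4 has Sftpc at 13.1 and Myh6 at 5.2, and the liver gene Alb is high in arrays of both groups.

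Over the tested IDs, the heated hearts differed from one another more than the control hearts did. The median SD over the 14607 tested probe set IDs was 0.384 in the heated arrays and 0.241 in the controls, against 0.229 in the heated hearts of 24 hours. In 38.2% of IDs the heated SD was more than 2 times the control SD, and in 5.63% the reverse held. Heated replicate 3 had 1364 IDs at least 2-fold above the highest control and 958 at least 2-fold below the lowest, and replicate 5 had 934 and 324. In heated replicate 2 these numbers were 43 and 45, in replicate 6 they were 14 and 0, and in replicate 1 they were 2 and 0. Among controls, each set against the other 5, replicate 4 had 198 above and replicate 5 had 111 below, and the other 4 had at most 4. Replicates 3 and 5 therefore stood far from the controls over many genes, and replicate 1 read much like a control in most of them. Correlation with the control mean over all tested IDs was 0.987, 0.970, 0.837, 0.894 and 0.974 in the 5 heated arrays.

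**Figure D2:**
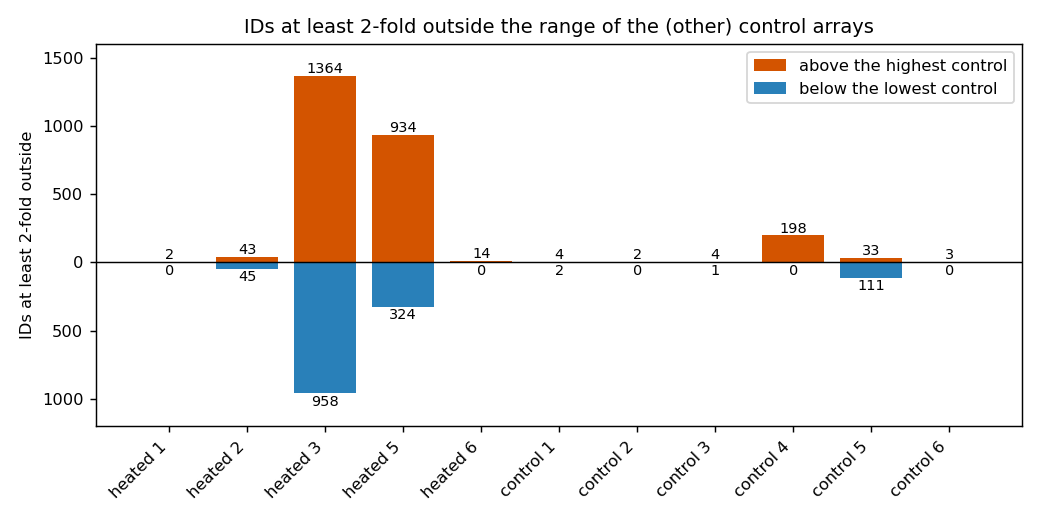
Number of probe set IDs in each 48 hour heart array that lay at least 2-fold above the highest (orange) or below the lowest (blue) control array, with each control set against the other 5. Heated replicates 3 and 5 have 1364 and 934 IDs above, and heated replicate 1 has 2.

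With a variance factor for each group, limma called no ID as higher (0.0% of 14607) or lower (0.0%) at an adjusted p under 0.05 and a 2-fold difference. The smallest adjusted p was 0.140, for Acta1. At an unadjusted p under 0.05, 8.78% of IDs were higher and 5.64% were lower, and with the 2-fold minimum 273 (1.87%) were higher and 69 (0.472%) lower. This last count is close to that of all IDs with a mean difference of 2-fold, 283 (1.94%) higher and 72 (0.493%) lower, and it depended on how the spread was estimated and on single arrays. With each ID's own variances and no moderation it was 30 and 26. Without heated replicate 3 it was 91 and 28, without replicate 5 115 and 32, without replicate 1 502 and 162, without replicate 6 480 and 160, and without replicate 2, 383 and 106. Without the 3 arrays with high Sln (heated replicate 3 and control replicates 2 and 5) it was 115 and 28, and no ID was called. A moderated limma fit over all 6 heart groups with 1 shared variance, without heated replicate 4, called 249 IDs higher (1.7%) and 55 lower (0.377%) at adjusted p under 0.05 and 2-fold. With replicate 4 in that fit the numbers were 375 and 271. The study used a 2-way analysis of variance for each organ, and these counts are not its result. The limma fit with 1 shared variance assumes an equal spread in all groups, which these arrays did not have. Its calls without replicate 4 are given below as counts beside the others. In 51 IDs (0.349%) all heated arrays lay above all controls, and in 83 (0.568%) all lay below. Without heated replicate 1 the numbers were 291 and 231, and without replicate 6 they were 179 and 201. Leaving out heated replicate 5 or any control of replicates 1 to 5 raised the higher count to between 78 and 97, and leaving out control replicate 5 raised the lower count to 134.

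Acta1, which encodes skeletal muscle alpha-actin, was the gene that set the groups apart most evenly. Its level was 11.03, 11.36, 10.97, 11.15 and 11.22 in the heated hearts and lay between 8.95 and 10.04 (median 9.64) in the controls. All 5 heated values exceeded the highest control, and replicate 1 was as high as the rest. The difference was 1.57 ± 0.23, a 2.97-fold higher level, with adjusted p = 0.140 by limma. The same difference had an adjusted p of 0.0153 with equal variances, 0.00231 with variances moderated in each group apart, 0.0425 without control replicate 1 and 0.0390 without control replicate 4, and 0.0513 to 0.924 without any other array. Within rats whose tag begins with 11 (2 heated, 2 control) it was 1.32, and within those whose tag begins with 12 (3 heated, 3 control) it was 1.73. With heated replicate 4 included it was 0.73 (adjusted p = 0.563). The 7 measured skeletal muscle markers had a median difference of 0.04, and the part of neighbouring tissue in the Acta1 level was not tested.

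The promoter of Acta1 is shown because Acta1 had the smallest p of the comparison. It is the 300 bases from 250 before to 50 after the start of the gene in RefSeq's GRCr8 table, chr19:68784145-68784444 on the minus strand, printed 5′ to 3′ along the gene with the CArG box, the binding site of serum response factor, in capitals.
Acta1: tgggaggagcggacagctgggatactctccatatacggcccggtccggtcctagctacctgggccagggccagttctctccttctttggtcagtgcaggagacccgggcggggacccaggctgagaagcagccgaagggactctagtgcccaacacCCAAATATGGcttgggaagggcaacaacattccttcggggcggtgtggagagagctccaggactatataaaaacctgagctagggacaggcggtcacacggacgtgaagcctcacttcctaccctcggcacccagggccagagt
The CArG box begins 94 bases before the start. A CArG box was found in 1.64% of 27457 rat promoters of the same length, and in 2 of the 21 promoters found for the cardiac stress list.

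Other genes of the cardiac stress and fetal program were higher in replicates 2, 3 and 5 and close to the controls in replicate 1. Of 24 measured members the median difference was 0.48, against 0.01 over all 17245 named genes, and the median deviation from the control mean was 0.04, 0.44, 1.16, 0.95 and 0.08 in the 5 heated hearts. At an unadjusted p under 0.05 and 2-fold, 3 of 22 tested members were higher and 0 lower, against 1.87% and 0.472% of all IDs. The list includes Acta1, which was 1 of these 3 members. With own variances and no moderation the count was 1, and that member was Acta1. Tnfrsf12a, the receptor of the cytokine TWEAK, was at 7.34, 8.03, 9.69, 9.83 and 7.45, with controls between 6.95 and 7.38 (median 7.06), a difference of 1.35 ± 0.37 (adjusted p = 0.308). Ccn2 (connective tissue growth factor) was at 7.28, 7.68, 10.22, 9.42 and 6.97, with controls between 6.80 and 7.64 (median 7.01). Both genes were highest in replicates 3 and 5, and the heated and control ranges of both overlapped. Fhl1, a LIM protein of the sarcomere chosen after its values were seen, was at 10.62, 11.31, 11.83, 11.80 and 10.80 against controls between 10.18 and 10.73 (median 10.38), a difference of 0.86 ± 0.22, with replicate 1 inside the control range. Its relative Fhl4, chosen in the same way, did not overlap between the groups, at 9.81, 10.16, 10.29, 10.17 and 9.50 against controls between 9.08 and 9.43 (median 9.30).

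The natriuretic peptides did not separate the groups. Nppa, which encodes the atrial peptide, was at 9.42, 11.29, 12.01, 11.79 and 10.58 in heated hearts and ranged between 8.27 and 11.44 (median 9.53) in controls, with adjusted p = 0.424. Control replicates 2 and 5, the ones with high Sln, gave the 2 highest Nppa values among controls, and the part of atrial tissue in Nppa was not tested. Nppb, which encodes the ventricular peptide, was at 10.55, 10.95, 11.70, 11.78 and 10.62 against controls between 10.46 and 11.08 (median 10.84), a difference of 0.34 ± 0.24.

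Several transcripts of natural killer and cytotoxic lymphocytes were lower in the heated hearts, though none passed the main test. Klrb1c, a lectin-like receptor of natural killer cells chosen after its values were seen, was at 7.71, 5.92, 6.11, 5.45 and 8.11 against controls between 8.31 and 8.57 (median 8.50), so that every heated heart lay below every control. The difference was -1.81 ± 0.35 (adjusted p = 0.308), and it was -1.75 within tag prefix 11 and -1.85 within prefix 12. Prf1 (perforin) was at 6.71, 5.53, 5.62, 5.02 and 6.77 against controls between 6.96 and 7.34 (median 7.28), a difference of -1.29 ± 0.26 (adjusted p = 0.308), again with no overlap. Control hearts of other times reached lower Prf1 values, 5.82 to 6.87 at TcMax and 6.24 to 7.78 at 24 hours. Heated replicates 1 and 6 lay within both of these ranges. Klrb1c in replicate 6 lay within the control range of 24 hours, 8.08 to 8.68. Within prefix 11 the Prf1 difference was -1.0 and within prefix 12 it was -1.46. Replicates 2, 3 and 5 were the lowest for both genes, and replicates 1 and 6 lay less far below the 48 hour controls. From the control mean, replicates 1 and 6 stood at -0.75 and -0.36 for Klrb1c (control SD 0.11). For Prf1 they stood at -0.51 and -0.45 (control SD 0.14).

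The same order of arrays was seen in other genes of these cells. Ccl5, a chemokine made by cytotoxic lymphocytes, was at 8.32, 6.20, 6.45, 6.11 and 8.87 against controls between 8.83 and 9.24 (median 8.99). Klrd1 (CD94) was at 7.24, 5.47, 5.65, 5.43 and 7.66 against controls between 7.54 and 8.03 (median 7.82), and Nkg7, a protein of cytotoxic granules, was at 8.56, 7.04, 7.18, 6.75 and 9.04 against controls between 8.90 and 9.37 (median 9.06). In each of these 3 genes, 4 of the 5 heated hearts were below all controls and replicate 6 lay within the control range, and the differences were -1.79, -1.51 and -1.39 with adjusted p = 0.308. Gzma (granzyme A), chosen after its values were seen, was at 6.67, 5.57, 5.31, 5.31 and 6.51 against controls between 6.85 and 7.30 (median 6.97), with no overlap. Kir3dl1, Klri1, Klrb1, Gzmf and the transcription factors Ikzf3 and Tbx21 were also lower in all 5 heated hearts than in any control and were likewise picked out afterwards. Several of these genes belong to families with close copies, and a probe set may read more than 1 member.

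Over the list of T, B and NK lymphocyte markers the median difference was -0.36 over 24 measured genes, and 7 of 21 tested members were at least 2-fold lower at an unadjusted p under 0.05, against 0.472% of all IDs. With own variances and no moderation the count was 6, and the fit with 1 shared variance called 6, against 0.377% of all IDs. Of the 24 genes, 16 had a negative and 8 a positive difference. Cd8a, a co-receptor chosen after its values were seen, was at 5.79, 5.48, 8.61, 8.81 and 6.19 against controls between 6.02 and 6.62 (median 6.26), higher in replicates 3 and 5 and below the controls in replicates 1 and 2. Its difference was 0.68 ± 0.47 over all arrays, -0.67 within tag prefix 11 and 1.49 within prefix 12. Xcl1, a chemokine released by natural killer cells, was at 7.41, 5.56, 5.82, 5.65 and 7.38 against controls between 7.40 and 7.95 (median 7.57), and Cxcl11, an interferon-induced chemokine, was at 9.69, 8.84, 7.31, 8.01 and 9.59 against controls between 9.59 and 10.20 (median 9.85). These 2 genes and Ccl5 were the 3 members of the 21 tested chemokines at least 2-fold lower at an unadjusted p under 0.05. Ccl2, a chemokine that draws monocytes, went the other way, at 9.88, 10.55, 11.90, 12.13 and 9.96 against controls between 9.53 and 10.45 (median 9.84), with replicates 1 and 6 within the control range.

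**Figure D3:**
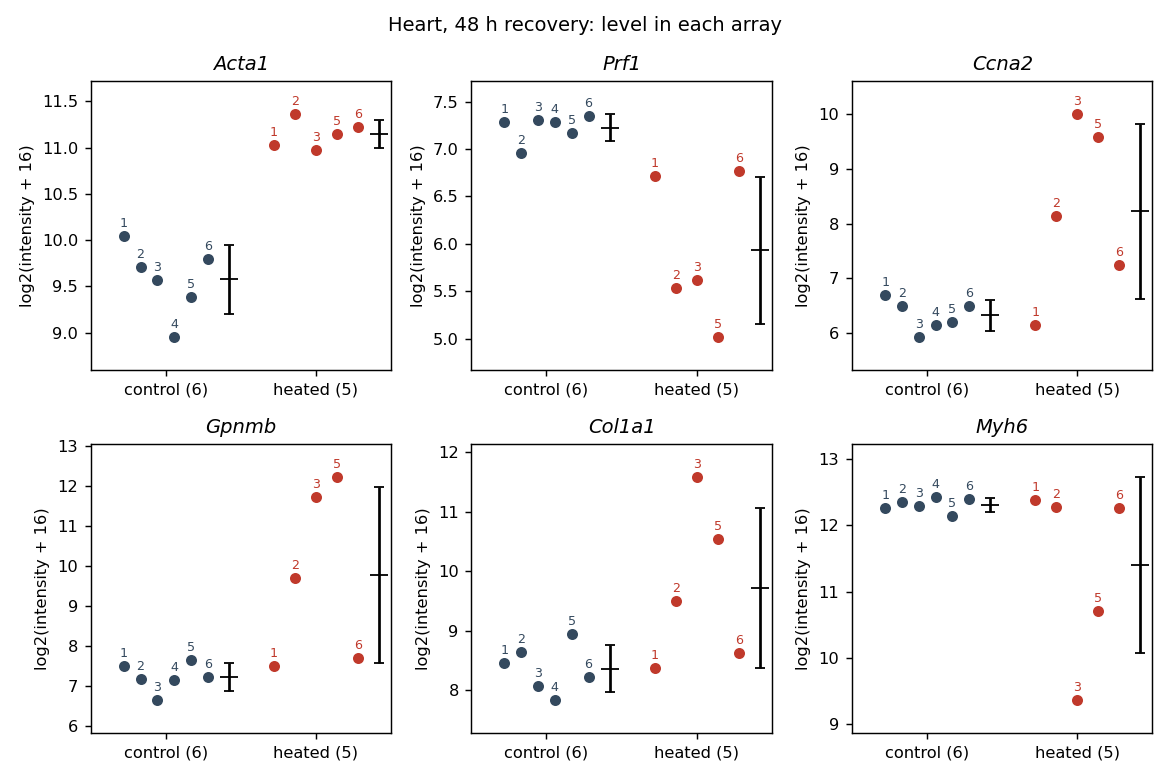
Level of 6 genes in each control (blue) and heated (red) heart on the log2(intensity + 16) scale, numbered by replicate, with the mean and SD beside each group. Acta1 does not overlap between the groups and Prf1 is lower in all heated hearts, whereas Ccna2, Gpnmb, Col1a1 and Myh6 depart from the controls mainly in replicates 2, 3 and 5 or in 3 and 5.

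The cell cycle and replication list had the largest median difference of the 52 lists, 1.35 over 38 measured genes. Its median deviation from the control mean was -0.08, 1.08, 2.79, 2.37 and 0.45 in heated replicates 1, 2, 3, 5 and 6, and it lay between -0.2 and 0.2 in the controls. Of the 37 tested members, 28 were at least 2-fold higher at an unadjusted p under 0.05, against 1.87% of all IDs, and 0 were lower. The fit with 1 shared variance called the same number, 28, against 1.7% of all IDs, and with own variances and no moderation the count was 4. In replicate 2, 35 of the 38 members were above all controls, in replicate 3 37, in replicate 5 37, in replicate 6 23 and in replicate 1 0. Over all 17245 named genes these counts were 2755, 5502, 4717, 2969 and 1948 in the same order. None passed the main test.

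Ccna2, the cyclin of DNA synthesis and early mitosis, was at 6.15, 8.14, 10.0, 9.58 and 7.25 against controls between 5.93 and 6.70 (median 6.35), a difference of 1.89 ± 0.48 (adjusted p = 0.308). The fold over the control mean was 12.7 in replicate 3, 9.50 in replicate 5 and 3.50 in replicate 2. Rrm2, the ribonucleotide reductase subunit that supplies DNA precursors, was at 5.81, 7.66, 10.0, 9.39 and 6.59 against controls between 5.48 and 6.20 (median 5.83). Replicate 6 was above all controls in both genes and replicate 1 was not. Kif20a, a kinesin of cell division, was at 5.47, 7.18, 9.11, 8.33 and 6.40 against controls between 5.29 and 5.71 (median 5.54), and Prc1, which bundles the microtubules of the dividing cell, was at 5.58, 7.74, 9.19, 8.49 and 6.24 against controls between 5.18 and 6.05 (median 5.77). Mki67, the proliferation antigen Ki-67, was at 6.54, 8.70, 10.20, 9.85 and 7.93 against controls between 6.63 and 7.51 (median 7.08). The rank of the heated hearts was the same in these 5 genes, replicate 3 first, then 5, 2, 6 and 1. Within tag prefix 11 the Ccna2 difference was 0.55 and within prefix 12 it was 2.66. No member of the list was without overlap between the groups. Hjurp, which loads the centromeric histone, is outside the list, was chosen after its values were seen and did not overlap, at 4.98, 5.74, 7.09, 6.91 and 5.65 against controls between 4.50 and 4.92 (median 4.81). The mitotic genes Bora and Dlgap5, chosen in the same way and also outside the list, did not overlap either, with the lowest heated heart at 5.61 and 5.62 and the highest control at 5.27 and 5.61.

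The mitotic cyclins Ccnb1 and Ccnb2 were at 4.99, 6.02, 7.95, 7.55 and 5.56 and at 5.57, 6.92, 8.50, 8.15 and 6.25 in the heated hearts. Controls lay between 4.28 and 5.12 (median 5.0) for Ccnb1 and between 5.10 and 5.71 (median 5.56) for Ccnb2, and the differences were 1.51 ± 0.40 and 1.60 ± 0.38 (adjusted p = 0.308 for both). Their promoters are shown because elements used in late cell cycle transcription were more frequent in promoters of this list than in all promoters. Each is the 300 bases from 250 before to 50 after the gene's start in RefSeq's GRCr8 table, 5′ to 3′ along the gene, with CCAAT boxes (CCAAT) and CHR elements (TTTGAA) in capitals. Ccnb1 lies at chr2:33655176-33655475 and Ccnb2 at chr8:79981609-79981908, both on the minus strand.
Ccnb1: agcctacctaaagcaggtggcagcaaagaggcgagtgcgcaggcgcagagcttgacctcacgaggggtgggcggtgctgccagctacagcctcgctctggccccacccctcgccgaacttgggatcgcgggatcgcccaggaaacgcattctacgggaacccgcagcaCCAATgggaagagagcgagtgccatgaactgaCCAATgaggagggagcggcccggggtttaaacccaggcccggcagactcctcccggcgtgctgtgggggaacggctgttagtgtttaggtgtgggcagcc
Ccnb2: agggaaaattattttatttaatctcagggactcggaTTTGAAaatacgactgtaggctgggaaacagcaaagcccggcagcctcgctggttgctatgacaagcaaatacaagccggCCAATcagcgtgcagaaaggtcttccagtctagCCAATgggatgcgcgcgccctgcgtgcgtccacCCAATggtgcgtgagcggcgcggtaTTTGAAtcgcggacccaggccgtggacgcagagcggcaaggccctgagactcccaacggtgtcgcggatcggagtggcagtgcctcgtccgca
Ccnb1 has 2 CCAAT boxes, which begin 82 and 50 bases before the start, and no CHR element was found in the bases shown. Ccnb2 has 3, at 134, 101 and 68 bases before the start, and CHR elements at 214 and 43 bases before it. Of the 32 promoters found for the list, 71.9% held CCAAT on either strand, against 37.7% of the 27457 promoters, and 50% held TTTGAA on either strand against 18.1%. Both were found in 40.6% of the list and in 7.25% of all promoters. The marked motifs share no bases in these promoters.

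Genes of matrix remodelling were higher in replicates 2, 3 and 5. The median difference was 0.68 over 43 measured members and 0.52 over 19 collagens, and the median deviations of the remodelling list were -0.03, 0.46, 1.58, 1.29 and 0.07 in the 5 heated hearts. At an unadjusted p under 0.05 and 2-fold, 15 of 38 tested remodelling genes and 6 of 17 tested collagens were higher and 0 were lower, against 1.87% and 0.472% of all IDs. With own variances and no moderation the counts were 2 and 1. Postn (periostin), secreted by activated fibroblasts, was at 7.32, 9.63, 11.23, 11.16 and 8.60 against controls between 6.57 and 8.78 (median 7.25), a difference of 2.15 ± 0.63 (adjusted p = 0.308). Replicate 6 of the heated hearts and control replicate 5 were close to each other, at 8.60 and 8.78. Timp1, an inhibitor of matrix metalloproteinases, was at 7.61, 9.21, 11.52, 11.19 and 8.13 against controls between 7.20 and 8.36 (median 7.55). Mmp12, the macrophage elastase, was at 5.27, 7.80, 8.41, 9.67 and 5.56 against controls between 4.91 and 5.74 (median 5.08), and Cthrc1, a secreted protein of wound fibroblasts, was at 5.06, 6.36, 9.26, 8.46 and 5.48 against controls between 4.85 and 5.42 (median 4.93). In all 4 genes replicates 2, 3 and 5 exceeded every control and replicates 1 and 6 did not, apart from Cthrc1 in replicate 6, which was just above the highest control. Control replicate 5 was the highest control for Postn, Timp1 and Cthrc1.

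The fibrillar collagens followed the same order with smaller differences. Col1a1 was at 8.37, 9.50, 11.58, 10.54 and 8.62 against controls between 7.84 and 8.94 (median 8.34), a difference of 1.36 ± 0.44 (adjusted p = 0.323), and Col1a2 was at 8.47, 9.42, 11.41, 10.47 and 8.72 against controls between 7.91 and 9.18 (median 8.40). Together these encode the chains of type I collagen. Col8a1, a short-chain collagen, was at 7.90, 9.27, 10.21, 10.07 and 8.74 against controls between 7.17 and 8.45 (median 8.10), and Col12a1, which decorates collagen fibrils, was at 6.03, 7.10, 10.63, 9.39 and 6.15 against controls between 5.31 and 8.10 (median 6.00). Col12a1 was high in control replicate 5 too, and its adjusted p was 0.363. Lox, which cross-links collagen, was at 6.35, 7.82, 10.94, 9.87 and 7.06 against controls between 6.60 and 6.85 (median 6.70), and Serpinh1, the collagen chaperone Hsp47, was at 9.69, 10.0, 11.28, 10.82 and 9.68 against controls between 9.37 and 9.68 (median 9.52). Serpinh1 did not overlap between the groups, though replicates 1 and 6 were close to the highest control. Adam12, a membrane metalloprotease, was at 4.61, 5.75, 9.49, 8.58 and 4.84 against controls between 4.15 and 4.96 (median 4.62), a 4.22-fold higher mean that rested on replicates 2, 3 and 5. Lox, Serpinh1 and Adam12 were chosen after their values were seen.

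Macrophage genes were higher in the same 3 hearts, and none of them passed the main test. The median difference was 0.70 over 26 measured markers, all of which had a positive difference, and the median deviations were -0.02, 0.45, 1.96, 1.80 and 0.02. Of 24 tested members 9 were higher at an unadjusted p under 0.05 and 2-fold and 0 lower, against 1.87% and 0.472% of all IDs, and with own variances and no moderation the count was 0. Gpnmb, a glycoprotein of macrophages that take up debris, was at 7.50, 9.71, 11.72, 12.22 and 7.71 against controls between 6.66 and 7.65 (median 7.21). Its difference of 2.54 ± 0.63, 5.83-fold, was the largest among IDs with 1 gene symbol, and it was 1.27 within tag prefix 11 and 3.21 within prefix 12 (adjusted p = 0.308). Trem2, a lipid-sensing receptor of macrophages, was at 6.25, 7.31, 9.11, 10.30 and 6.64 against controls between 5.87 and 6.59 (median 6.15). Unlike the cell cycle genes, Gpnmb and Trem2 were higher in replicate 5 than in replicate 3. Lgals3 (galectin-3) was at 7.78, 9.04, 10.80, 11.39 and 7.87 against controls between 7.53 and 8.08 (median 7.68) and Cd68, a lysosomal protein of macrophages, was at 7.10, 8.0, 9.82, 10.36 and 7.12 against controls between 6.80 and 7.33 (median 6.94), with the same ranking of these 2 hearts. Cx3cr1, the fractalkine receptor of monocytes and macrophages, was at 6.69, 7.86, 10.61, 10.54 and 6.94 against controls between 6.23 and 7.91 (median 6.97), and in this gene replicate 2 was within the control range.

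The cytokine, receptor and NF-kB list had a median difference of 0.37 over 35 measured genes. Its median deviations were -0.03, 0.13, 1.16, 0.70 and -0.08 in the 5 heated hearts. The median difference was 0.18 over 17 complement genes and 0.01 over 25 coagulation and fibrinolysis genes. Of 29 tested cytokine, receptor and NF-kB genes, 2 were higher at an unadjusted p under 0.05 and 2-fold, of 14 complement genes 1, and of 23 coagulation and fibrinolysis genes 3, against 1.87% of all IDs. Il1rn, the interleukin-1 receptor antagonist, was at 5.50, 6.70, 9.53, 10.19 and 5.51 against controls between 5.20 and 5.87 (median 5.48), with replicates 1 and 6 in the control range. Plau (urokinase) was at 5.85, 7.42, 8.33, 8.66 and 5.54 against controls between 5.42 and 6.21 (median 5.56), and C3ar1, the receptor for complement fragment C3a, was at 7.01, 7.72, 10.16, 10.17 and 7.64 against controls between 6.83 and 7.69 (median 7.20). Ptgs2, the inducible cyclooxygenase, was at 5.09, 5.70, 8.04, 6.71 and 5.38 against controls between 4.58 and 5.84 (median 5.05), a difference of 1.06 ± 0.42. Clec4d, a C-type lectin receptor of myeloid cells chosen after its values were seen, was at 5.16, 5.34, 7.36, 7.22 and 5.37 against controls between 4.61 and 5.15 (median 4.90) and did not overlap. The interferon-stimulated list had a median difference of -0.01 over 32 measured genes and antigen presentation one of -0.11 over 22, with 0 of 27 and 0 of 19 tested members at 2-fold and an unadjusted p under 0.05.

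**Figure D4:**
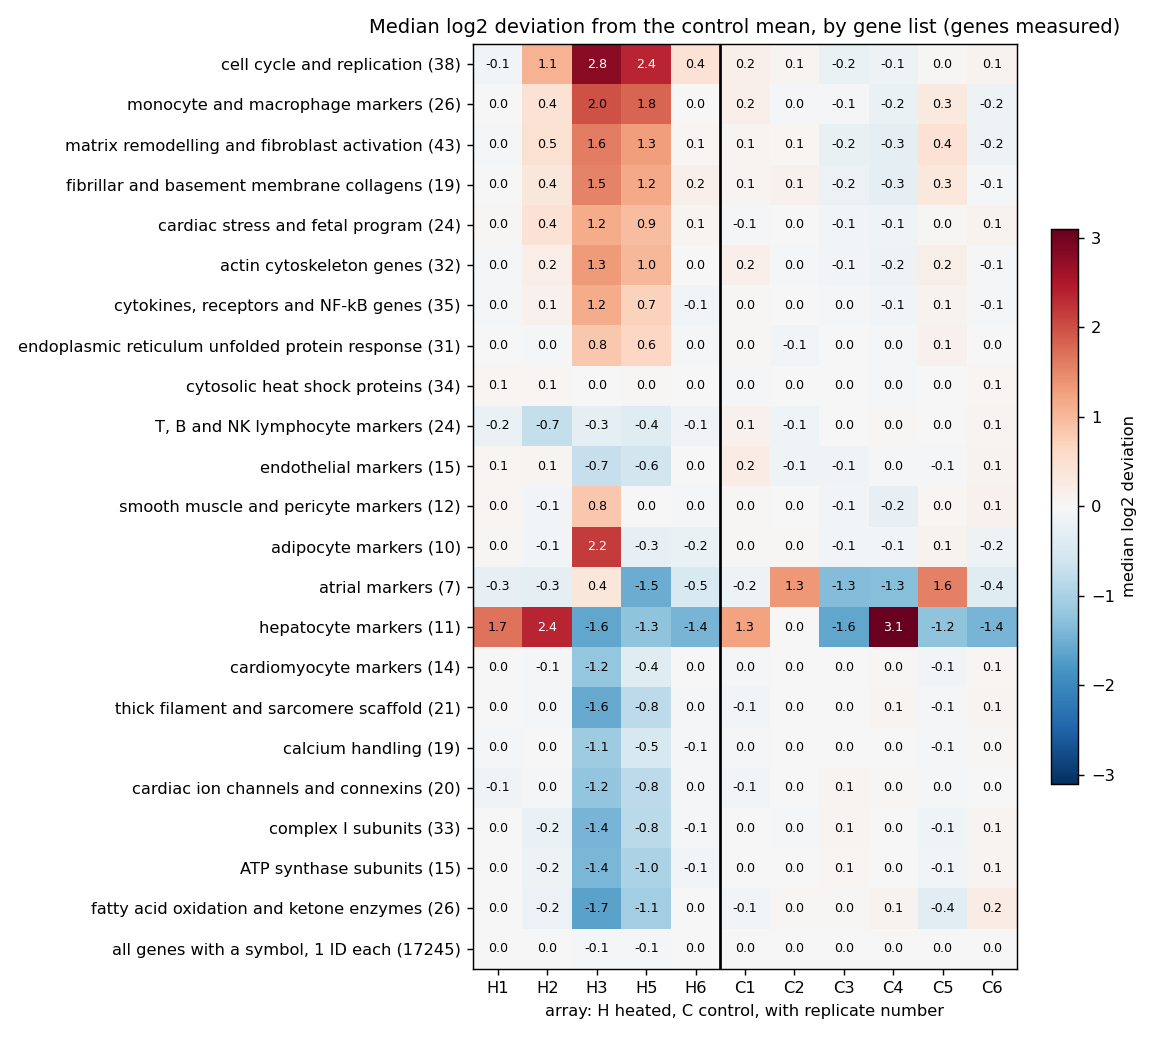
Median over the measured genes of each list (number in parentheses) of the log2 deviation from the control mean, in each heated (H) and control (C) heart. The cell cycle, macrophage and matrix lists reach 1.3 to 2.8 in heated replicates 3 and 5, the muscle and energy lists are negative in the same arrays, and the hepatocyte and atrial lists vary within both groups.

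Contractile, calcium and channel genes were lower in replicates 3 and 5 and close to the controls in replicates 1 and 6. The thick filament and sarcomere scaffold list had median deviations near 0 in replicates 1, 2 and 6, -1.6 in replicate 3 and -0.8 in replicate 5. Its median difference was -0.43 over 21 measured genes, that of calcium handling -0.36 over 19 and that of cardiac ion channels and connexins -0.43 over 20. At 2-fold and an unadjusted p under 0.05, 1 of 17, 1 of 12 and 0 of 19 tested members were lower, against 0.472% of all IDs. Myh6 was at 12.39, 12.27, 9.37, 10.71 and 12.25 against controls between 12.13 and 12.43 (median 12.32), a difference of -0.91 ± 0.39 (adjusted p = 0.337). The level in replicate 3 was 7.68-fold and in replicate 5 3.03-fold below the control mean, and the difference was 0.02 within tag prefix 11 and -1.54 within prefix 12. Myom2, which ties myosin at the M-band, was at 11.85, 11.54, 9.01, 10.36 and 11.66 against controls between 11.78 and 12.07 (median 11.92). Tnni3 (cardiac troponin I) was at 12.33, 12.15, 10.01, 11.45 and 12.33 against controls between 12.24 and 12.42 (median 12.35), and in replicates 3 and 5 it stood less far below the controls than Myh6 did. Trim63 (MuRF1), a ubiquitin ligase of muscle, was at 8.95, 8.81, 6.72, 7.66 and 8.89, and Ldb3, a Z-disc protein, was at 10.29, 10.36, 8.22, 9.27 and 10.59, with controls between 8.95 and 9.10 (median 9.03) and between 10.39 and 10.58 (median 10.47).

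Calcium store genes showed the same 2 hearts lowest. Of the 12 tested members of the calcium handling list, 1 was lower in every heated heart than in any control, against 0.568% of all IDs. Hrc, the histidine-rich calcium-binding protein of the sarcoplasmic reticulum, was at 10.42, 10.11, 7.07, 8.31 and 10.39 against controls between 10.34 and 10.62 (median 10.47), a difference of -1.21 ± 0.43 (adjusted p = 0.326). Trdn (triadin), which anchors the calcium release channel, was at 7.57, 7.47, 6.93, 6.84 and 7.65 against controls between 7.75 and 8.59 (median 7.97), and all heated values lay below all controls. S100a1, a calcium sensor of muscle, was at 10.70, 10.28, 9.08, 9.59 and 10.45 against controls between 10.69 and 11.07 (median 10.79), with replicate 1 at the lower edge of the controls. Ppp1r3a, a glycogen-targeting phosphatase subunit, was at 9.18, 8.90, 6.84, 7.56 and 9.07 against controls between 9.16 and 9.34 (median 9.27). Among channels, Kcnj11, the pore of the ATP-sensitive potassium channel, was at 8.09, 7.55, 5.98, 6.71 and 8.08 against controls between 8.07 and 8.49 (median 8.17). Kcna2, a voltage-gated potassium channel chosen after its values were seen, was lower in every heated heart, at 8.33, 7.78, 5.47, 6.36 and 8.36 against controls between 8.54 and 8.67 (median 8.59). Lmod3, which nucleates thin filaments, was at 9.03, 8.75, 6.44, 7.45 and 9.18 against controls between 8.83 and 9.29 (median 9.02). Heated replicate 3 also had the highest fat cell genes, with a median deviation of the adipocyte list of 2.16, and the part of added tissue in its lower muscle values was not tested. In replicate 5 the adipocyte list stood at -0.25, the hepatocyte list at -1.25, the atrial list at -1.54 and Sftpc at 4.50. In the controls the hepatocyte list ranged from -1.61 to 3.05. The part of neighbouring tissue in the lower muscle values of replicate 5 was not tested either.

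Genes of energy supply were lower by a similar amount in the same hearts. Median differences were -0.49 for 33 complex I subunits, -0.45 for 27 subunits of complexes II to IV, -0.52 for 15 ATP synthase subunits, -0.58 for 21 citrate cycle and pyruvate enzymes and -0.60 for 26 enzymes of fatty acid oxidation and ketone use. All 33 complex I subunits, all 15 ATP synthase subunits and all 21 citrate cycle genes had a negative difference, as did 25 of 26 fatty acid genes, while 0 of the tested members reached a mean difference of 2-fold, against 0.493% of all IDs lower. In replicate 3, 29 of the 33 complex I subunits were at least 2-fold below the control mean, in replicate 5 10, and in each of the other heated hearts 0. Over all 17245 named genes the counts were 1115 in replicate 3 and 573 in replicate 5. Hadh, an enzyme of fatty acid oxidation, was at 11.31, 11.02, 8.90, 9.33 and 11.21 against controls between 10.87 and 11.48 (median 11.29), a difference of -0.91 ± 0.35 (adjusted p = 0.327). Echs1, which acts in the same spiral, was at 10.96, 10.57, 8.99, 9.45 and 10.86 against controls between 10.94 and 11.27 (median 11.01), and Acads, which starts it on short chains, was at 9.31, 9.21, 7.22, 7.87 and 9.32 against controls between 9.12 and 9.73 (median 9.50). Replicate 2 was below all controls in Echs1, and in Acads it lay within the control range. Bdh1, an enzyme of ketone use, was at 9.54, 8.92, 7.43, 8.54 and 9.68 against controls between 9.40 and 9.98 (median 9.60).

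Subunits of the respiratory chain had like values in each heart. Ndufs3 of complex I was at 10.72, 10.73, 8.77, 9.42 and 10.57 against controls between 10.51 and 10.94 (median 10.80), and Ndufb3, chosen after its values were seen, was at 10.27, 10.22, 8.56, 9.27 and 10.19 against controls between 10.32 and 10.44 (median 10.38) with every heated heart lower. Atp5mc1, which forms the rotor ring of ATP synthase, was at 11.19, 10.85, 9.19, 9.81 and 10.85 against controls between 11.06 and 11.26 (median 11.18). Of the regulators, Ppargc1a (PGC-1 alpha), the coactivator of mitochondrial genes, was at 10.16, 9.75, 7.74, 8.93 and 10.05 against controls between 10.09 and 10.31 (median 10.18), Perm1, its muscle partner, was at 9.25, 9.11, 6.07, 7.32 and 9.37 against controls between 8.99 and 9.42 (median 9.18), and Rxrg, a nuclear receptor, was at 10.23, 9.89, 7.13, 8.21 and 10.13 against controls between 10.01 and 10.33 (median 10.20). Slc2a4, the insulin-regulated glucose transporter GLUT4, was at 10.09, 9.93, 6.86, 7.93 and 9.84 against controls between 9.73 and 10.11 (median 9.87). Perm1 and Slc2a4 were below all controls in replicates 3 and 5. Glycolysis genes as a list had a median difference of -0.03 over 15 measured genes, but the muscle forms were lower in replicates 3 and 5. Pgam2 (muscle phosphoglycerate mutase) was at 11.09, 10.77, 7.12, 8.82 and 11.15 against controls between 10.94 and 11.29 (median 11.04), Eno3 (muscle enolase) at 11.42, 10.92, 8.50, 9.92 and 11.22 against controls between 10.91 and 11.37 (median 11.22), and Pfkm (muscle phosphofructokinase) at 10.25, 10.22, 7.75, 8.52 and 10.03 against controls between 9.97 and 10.45 (median 10.32).

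The cytosolic heat shock proteins, induced by heat itself, had a median difference of 0.02 over 34 measured genes at 48 hours, with members on both sides. In replicate 3, 13 of the 34 were above all controls and 15 below, and in replicate 5 13 were above and 12 below. In replicates 1 and 2, 12 each were above, with 1 and 2 below, and in replicate 6, 6 were above and 6 below. Over all 17245 named genes, 5502 were above and 5624 below in replicate 3, and 4717 and 5201 in replicate 5. In replicates 1, 2 and 6 they were 1948 and 1584, 2755 and 2757, and 2969 and 2424. Of 23 tested members 0 reached a mean difference of 2-fold, against 1.94% of all IDs higher and 0.493% lower. Hspb1 (Hsp27) was the member with no overlap, at 9.76, 9.87, 10.35, 10.37 and 9.72 against controls between 9.28 and 9.68 (median 9.47), a difference of 0.53 ± 0.17 (adjusted p = 0.323). Hsp90aa1 was at 9.76, 9.75, 10.38, 10.12 and 9.63 against controls between 9.50 and 9.65 (median 9.58), with replicate 6 within the control range. The cochaperones Fkbp4 and Dnaja4 were lower in replicates 3 and 5, at 9.23, 9.02, 8.04, 8.14 and 9.29 and at 9.40, 9.40, 8.07, 8.63 and 9.59, with controls between 9.01 and 9.48 (median 9.16) and between 9.18 and 9.57 (median 9.36). At TcMax the differences of Hspb1, Hsp90aa1, Fkbp4 and Dnaja4 in the heart had been 2.71, 2.58, 1.15 and 1.45, in other rats.

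Genes of the endoplasmic reticulum and amino acid responses were somewhat higher in replicates 3 and 5. The median difference was 0.26 over 31 and 0.24 over 28 measured genes, and 0 of 21 and 1 of 21 tested members were higher at 2-fold and an unadjusted p under 0.05, against 1.87% of all IDs. Sec61b, a subunit of the protein translocation channel, was at 7.72, 8.11, 9.86, 9.65 and 7.95 against controls between 7.55 and 8.03 (median 7.81), Pycr1, which makes proline, was at 5.76, 6.29, 7.79, 7.53 and 6.05 against controls between 5.27 and 6.13 (median 5.51), and Asns (asparagine synthetase) was at 5.66, 5.79, 8.18, 7.49 and 5.81 against controls between 5.38 and 5.79 (median 5.66). Hmox1 (heme oxygenase 1) was at 5.99, 6.93, 8.98, 7.97 and 6.05 against controls between 5.53 and 6.04 (median 5.81), a difference of 1.37 ± 0.39 (adjusted p = 0.308), with replicate 1 in the control range. Atf3, a stress-induced transcription factor, was higher in all heated hearts, at 6.37, 6.62, 7.56, 8.12 and 6.38 against controls between 5.77 and 6.33 (median 6.17), if only just in replicates 1 and 6. Lists with a median difference between -0.15 and 0.15 included the neutrophil, mast cell, smooth muscle, lung epithelium, skeletal muscle, coagulation and fibrinolysis, circadian clock and glucocorticoid-induced genes.

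A few genes of other roles also did not overlap between the groups or had large differences. Tgm1, an epithelial transglutaminase, was higher in all heated hearts and highest in replicates 2 and 5, at 6.49, 8.37, 7.20, 8.43 and 6.47 against controls between 5.22 and 6.41 (median 5.58), a difference of 1.69 ± 0.36 (adjusted p = 0.308). Igfbp3, which binds insulin-like growth factors, was lower in all, at 8.17, 7.37, 8.14, 8.01 and 7.78 against controls between 8.29 and 9.14 (median 8.70). Cyp26b1, which breaks down retinoic acid, was at 5.32, 5.05, 4.79, 4.40 and 4.95 against controls between 5.43 and 6.13 (median 5.82). Apol3-ps1, a gene annotated as an apolipoprotein L pseudogene, was at 5.18, 4.93, 5.07, 4.64 and 5.77 against controls between 5.94 and 6.26 (median 6.18). In Igfbp3, replicate 2 was the lowest heart, and in Cyp26b1 replicate 5 was. Angptl4, which inhibits lipoprotein lipase, was at 5.24, 5.64, 7.68, 7.32 and 4.71 against controls between 4.44 and 5.28 (median 4.79), with replicates 1 and 6 within the control range. Gsn (gelsolin), an actin-severing protein listed with the fibroblast markers, was at 11.52, 11, 10.23, 9.68 and 11.29 against controls between 11.48 and 11.76 (median 11.67), and Flt1, a vascular growth factor receptor of endothelial cells, was at 9.50, 9.29, 8.27, 8.79 and 9.36 against controls between 9.28 and 9.68 (median 9.46). The endothelial list of 15 measured markers had median deviations of -0.70 and -0.58 in replicates 3 and 5 and near 0.1 or 0 in the other heated hearts. Tgm1, Cyp26b1 and Apol3-ps1 were chosen after their values were seen.

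Whether the difference at 48 hours was larger than at 24 hours was tested on the difference itself, with 6 heated and 6 control hearts of other rats at 24 hours. No ID passed in either direction (0.0% and 0.0%), and the smallest adjusted p was 0.362. At an unadjusted p under 0.05, 3.86% of IDs were higher and 1.67% lower, and with 2-fold 200 (1.37%) and 24 (0.164%). Without heated replicate 1 of 48 hours, the heated heart most like the controls, the test called 73 IDs higher (0.50% of all tested IDs). Of these, 58 had a symbol and 20 were members of the cell cycle list, which has 37 tested members. Leaving out any other single array gave no call. Of 37 tested cell cycle genes, 24 were higher at 48 than at 24 hours at 2-fold and an unadjusted p under 0.05, against 1.37% of all IDs, and of 24 macrophage markers 7 were. Ccna2 had a difference of 0.02 at 24 hours and 1.89 at 48 hours, and the change between them was 1.87 ± 0.54 (adjusted p = 0.380). Gpnmb went from 0.19 to 2.54, a change of 2.35 ± 0.74 (adjusted p = 0.444).

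Acta1 and Timp1 were already higher at 24 hours. For Acta1 the heated hearts lay between 11.01 and 11.36 at 24 hours and the controls between 9.17 and 10.15, a difference of 1.65, and the change to 48 hours was -0.09 ± 0.30. At TcMax the Acta1 difference was 0.66. Timp1 differed by 1.63 at 24 hours, with heated hearts between 8.43 and 9.79 and controls between 6.71 and 7.84, and the change to 48 hours was 0.26 ± 0.60. Fhl1 had a difference of 1.1 at 24 hours. Prf1 was lower by a mean of -0.85 at 24 hours with overlapping ranges (4.88 to 6.83 in heated and 6.24 to 7.78 in control hearts), and Klrb1c by -1.02. The muscle gene Myh6 differed by -0.09 at 24 hours and -0.91 at 48 hours, a change of -0.83 ± 0.37 (adjusted p = 0.851). The Hspb1 difference was 2.71 at TcMax, 0.89 at 24 hours and 0.53 at 48 hours, and its change from 24 to 48 hours was -0.36 ± 0.25.

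Kidneys of the same 11 rats asked whether the heart's differences were larger than those of another organ, with the value of each rat's kidney taken from that of its heart. The IDs tested were again those with the larger SD over heart arrays, whatever their kidney level. Such a choice favours genes that vary in the heart. No ID passed in either direction (0.0% and 0.0%), and the smallest adjusted p was 0.0995, again for Acta1. At an unadjusted p under 0.05, 5.13% were higher and 3.95% lower, and with 2-fold 191 (1.31%) and 80 (0.548%). Acta1 differed by 1.57 in heart and 0.19 in kidney, and the gap was 1.38 ± 0.20. Its kidney levels were low, 5.90 to 6.21 in heated and 5.39 to 6.09 in control rats. With equal variances, or with all IDs tested, 1 ID passed. Of the matrix remodelling list 12 of 38 tested members were higher in heart than kidney at 2-fold and an unadjusted p under 0.05, of the macrophage list 9 of 24 and of the cell cycle list 13 of 37, against 1.31% of all IDs. Of 21 tested lymphocyte markers 4 were lower, against 0.548%. Gpnmb differed by -0.01 in kidney, and its gap was 2.55 ± 0.63 (adjusted p = 0.546). Ccna2 differed by 0.69 in kidney, where the heated values lay between 4.79 and 6.20 and the controls between 4.67 and 5.15, and its gap was 1.20 ± 0.39. By rat the kidney deviations of Ccna2 from the control mean were -0.002, 1.26, 1.12, 1.23 and -0.15, with a control SD of 0.19. Replicates 2, 3 and 5, the highest for Ccna2 in the heart, were thus also the highest in kidney. Prf1 differed by -0.19 in kidney, and its gap was -1.10 ± 0.30 (adjusted p = 0.546). Its kidney levels were low too, 4.97 to 5.30 in heated and 5.02 to 5.56 in control rats. The part of low kidney levels in the gaps was not tested. Organs were normalized apart by the authors, so that differences and not levels were compared.

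**Figure D5:**
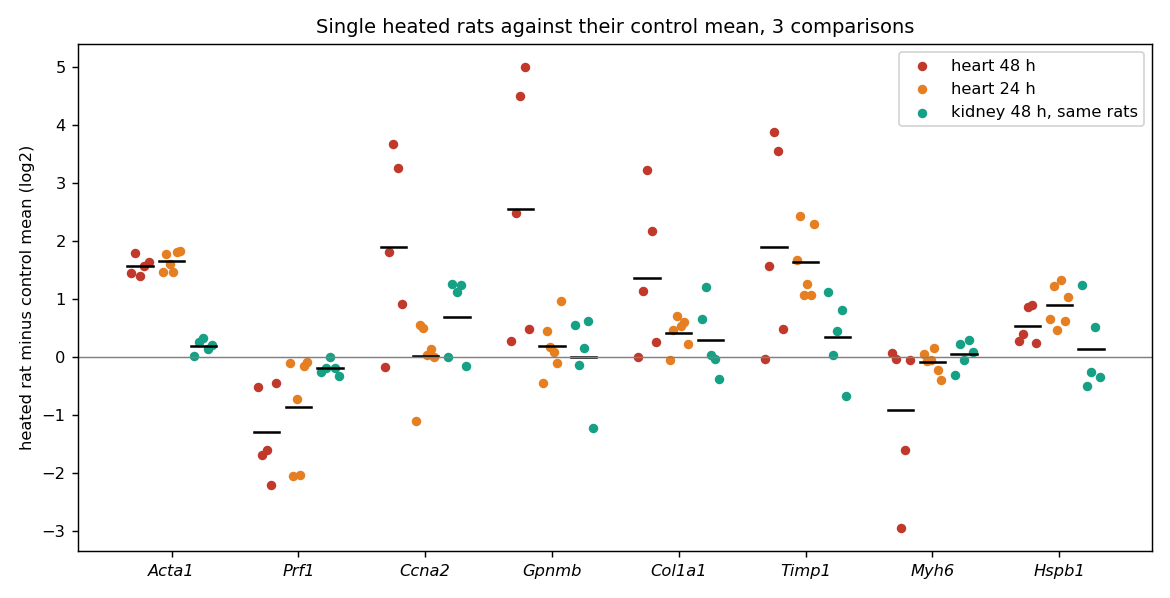
Difference of each heated rat from the mean of its own controls (log2, points; bars are means) for 8 genes in heart at 48 hours, heart at 24 hours and kidney at 48 hours of the same rats. Acta1 is near 1.6 in both heart groups and near 0.2 in kidney, and Ccna2 and Gpnmb spread widely at 48 hours in the heart, while their means at 24 hours are 0.02 and 0.19.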

How the data were processed

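The deposited values are linear intensities per probe set of Affymetrix rat whole-transcript gene arrays, which the authors computed from the scans by iterPLIER (Affymetrix Expression Console 1.1), separately for each organ, so that levels can differ in scale between organs. Differences between arrays that this normalization removed, such as total RNA per heart, cannot be seen. Log2(intensity + 16) was taken, and of 29214 probe set IDs the 50% with the larger SD over 34 heart arrays (14607) were tested. IDs with 1 gene symbol in the platform annotation (18644) were named, 962 had several genes and 9608 none.

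Groups were fitted with limma 3.58.1 in R 4.3.3 with 1 variance factor per group (1.744 heated, 0.6291 control) and moderated variances, and p was adjusted by the Benjamini-Hochberg method over all tested IDs. A call needed an adjusted p under 0.05 and 2-fold. Summaries and figures were made in Python 3.11.15. The fitting code was tested on simulated data. Heart and kidney of a rat were matched by the tag in the labels.

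The 52 lists (1176 genes, 1039 measured, 766 tested; 1 ID per gene, that with the highest mean) and the tests were chosen with earlier results of these data known. Genes were named by rule as the members with the largest difference and the best known members of the lists described, and others are marked as chosen after their values were seen. The alternatives tried were other variance models, filters, an offset of 1, quantile normalization, blocks, heated replicate 4 included and each array left out. That the samples of a group are 1 rat each comes from the tags. The p-values set a mean difference against an estimate of the spread between arrays. That spread holds differences between rats and between the pieces cut from their hearts.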

Additional observations from a re-analysis of the deposited data

Results flagged for a closer look

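In 9 of 194 groups examined (the heated and the control hearts for each of 97 genes), the highest or lowest array stood apart from the rest of its group by more than Dixon's 95% limit, and chance gives about 1 in 20 such groups. Among the genes of the results, Ccnb1 was lowest in control replicate 3 at 4.28, Col8a1 was lowest in control replicate 4 at 7.17, and Plau was highest in control replicate 1 at 6.21.

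The other flags were genes of neighbouring tissues. Sftpc of lung was highest in heated replicate 1 at 7.47 and in control replicate 4 at 7.56. Heated replicate 3 stood apart for the atrial gene Sln at 9.77, for the brown fat gene Ucp1 at 10.41 and for the fat cell gene Adipoq at 9.78. Heated replicate 2 stood apart for the kidney gene Slc12a1 at 8.56. In the array left out of the comparison, heated replicate 4, Sftpc was at 13.09, far above the control hearts.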

How the results depend on the processing

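No ID was called in either direction under the filter on mean level, with all IDs tested, with quantile normalization, with an offset of 1, with the tag prefix as a block, with own variances and no moderation, with no fold minimum, or with heated replicate 4 in the fit. Equal variances and variances moderated in each group apart called 1 ID higher and, as that ID was in a list, 1 list member. One variance over all 6 heart groups called 249 higher and 55 lower (68 and 12 list members), and with heated replicate 4 in that fit, an alternative added after the data were seen, 375 and 271 (82 and 60 list members). An unadjusted p gave 273 and 69 (71 and 13 list members). Leaving out 1 array gave 0 to 1 higher and 0 lower, for list members too. For 48 against 24 hours leaving out 1 array gave 0 to 73 higher, and the largest number came without heated replicate 1. For heart against kidney, equal variances and all IDs tested each called 1 higher.

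The replicate numbers in the labels did not pair the samples. Deviations from the group means of heated and control hearts with the same number correlated at -0.07, -0.01, -0.15, 0.47 and 0.40, and 2 of 5 heated hearts correlated best with the control of their own number. With the replicate block 0 IDs were called higher and 0 lower, as without it.

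Non-overlapping IDs, 51 higher and 83 lower, were 93 and 148 with all IDs tested, 32 higher with quantile normalization, and 62 to 291 higher and 85 to 231 lower with 1 array left out. Fewer arrays can only add to such a count.

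Of the 88 genes named under all alternatives, 9 changed sign somewhere. Within tag prefix 11 the difference was -0.035 for Nppa, -0.67 for Cd8a, 0.021 for Myh6, 0.035 for Ndufs3, 0.045 for Perm1, 0.18 for Slc2a4, 0.019 for Fkbp4 and 0.14 for Dnaja4. With heated replicate 4 Nppb was at -0.70 in both fits that held it. The cause was not tested.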
